A study of Mus musculus with 18 samples.

Results

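The proteasome genes described here are those whose symbol is Psma, Psmb, Psmc, Psmd, Psme, Psmf or Psmg followed by a number, with Psmb8, Psmb9 and Psmb10 left out. The rule found 45 of the 23329 genes in the count tables. They were followed in FDH cells, an immortalised BALB/c mouse line made from E14.5 fetal liver and used at passages 10 to 12. The background of all cells was bc-/- bIL-3-/-, which removes the chains that signal for IL-3, and both lines had received bc again by transduction. The P248L line also carried IL3Rα with the amino acid change P248L, and the WT line carried the unaltered IL3Rα. Each line was sampled untreated, in medium with doxycycline and 100 ng/ml mouse SCF (stem cell factor), and after washing and 2 or 5 days in 100 ng/ml IL-3. The recipe given for the IL-3 medium names neither doxycycline nor SCF, so a response to IL-3 cannot be told apart from a response to their removal. Each receptor stands for 1 line, so receptor and line cannot be told apart either.

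The proteasome degrades proteins tagged with ubiquitin. Its barrel-shaped core particle is built from α rings, which gate the entrance, and β rings, of which the products of Psmb5, Psmb6 and Psmb7 hold the cutting sites. A regulatory particle with an ATPase ring and a lid caps the barrel, removes ubiquitin and unfolds the substrate, and dedicated chaperones help both particles assemble. In blood cells exposed to interferon, Psmb8, Psmb9 and Psmb10 replace the 3 cutting subunits, and the Psme1 and Psme2 products form another cap, PA28.

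RNA was sequenced in 18 libraries, 3 in each of the 6 groups, with 13844612 to 27181962 reads in genes per library. Levels are CPM, counts per 1000000 reads in genes after TMM scaling. Reads of a gene were compared with edgeR's quasi-likelihood test over the 11942 genes that passed a filter on low counts, and a gene was said to rise or fall at a Benjamini-Hochberg adjusted p under 0.05. Of the 45 proteasome genes, 43 passed the filter. Psma8, a testis α subunit, had 0 reads in every library, and Psmb11, a thymus β subunit, had at most 1. The labels do not say that replicates were separate cultures, so the p-values measure only the spread between libraries, which may be technical. In bulk RNA a change in the kinds of cells present cannot be told apart from a change of RNA per cell.

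The marker genes showed both lines leaving the progenitor state. The summed level of Kit, Cd34, Myb and Flt3 was 2114 to 2292, 1055 to 1268 and 208 to 261 CPM in P248L cells untreated, at day 2 and at day 5, and 1848 to 1899, 646 to 697 and 120.2 to 154 CPM in WT cells. The sum of 5 neutrophil markers was 1.41 to 3.31, 38.4 to 71 and 13991 to 19517 CPM in P248L cells at the same times, and 37.1 to 56.4, 6816 to 8536 and 5556 to 8648 CPM in WT cells. That of the 4 monocyte and macrophage markers found of 5 listed was 11.1 to 12.9, 23.3 to 30.4 and 514 to 725 CPM in P248L cells, and 38.9 to 47.2, 33.1 to 48.7 and 1440 to 1723 CPM in WT cells. The part of this change of cell state in the proteasome levels was not tested. Lymphoid, erythroid, and stromal and endothelial sums stayed at or below 1.34 CPM in all libraries, with Hba-a1 and Col1a2 at 0, and the hepatocyte sum at or below 14.3 CPM, with Alb and Ttr at 0. Libraries within a group were uneven, most of all in the untreated P248L group. In P248L untreated library 1, 39 of the 43 proteasome genes stood above the mean of the other 2 libraries of the group, by a median of 0.50 on the log2 scale, where the median over all genes tested was 0.00. Library 3 of the same group stood lower, with 39 of 43 genes below and a median of -0.40. Shorter transcripts stood relatively higher in library 1 (Spearman's rho across the 43 genes -0.63, which share 1 library, so no p is given). Other groups showed smaller shifts of this kind. WT untreated library 2 had 39 of 43 genes above (median 0.23, rho -0.68), and WT untreated libraries 1 and 3 had 37 and 32 below. In WT day 2 library 3, 40 stood above (0.11, -0.61), and in P248L day 5 library 3, 36 (0.16, -0.42). WT and line comparisons thus carry such shifts too. P248L untreated library 1 had the largest median shift. The value without it is given wherever leaving it out changed a call or a sign, or moved a log2 change by over 1.5 times.

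Promoter sequence is shown for 5 genes that the results turn on. Psmg1 had the largest fall, Psmd12 the largest called day 2 rise in WT cells, and the day 5 responses of Psmb6, Psmd8 and Psme2 differed between the lines. On GRCm38 (GENCODE M21) Psmg1 lies on chromosome 16 from 95979933 to 95990960, Psmd12 on chromosome 11 from 107479484 to 107504362, Psmb6 on chromosome 11 from 70525367 to 70527858 and Psmd8 on chromosome 7 from 29174188 to 29180701. Psme2 (55587441 to 55591113) and Psme1 (55578123 to 55581529) lie beside each other on chromosome 14. Each line gives the 150 bases before the RefSeq start (GRCm38.p6), written 5′ to 3′ on the gene's strand. For Psmd12, Psmd8 and Psme2, GENCODE places the start inside this window. Capitals mark CCGGAAG, or its reverse complement, letters bound by ETS factors, in Psmg1 (chr16:95990961-95991110, minus strand) and Psmd12 (chr11:107479378-107479527, plus strand), and TGACNNNGC, letters of the element bound by Nfe2l1 and Nfe2l2, in Psmb6 (chr11:70525207-70525356, plus strand). Neither motif was found in the windows of Psmd8 (chr7:29180674-29180823, minus strand) and Psme2 (chr14:55591102-55591251, minus strand).
Psmg1: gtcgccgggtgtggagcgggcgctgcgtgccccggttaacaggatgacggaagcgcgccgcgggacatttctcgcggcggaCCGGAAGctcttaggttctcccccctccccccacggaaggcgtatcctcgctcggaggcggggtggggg
Psmd12: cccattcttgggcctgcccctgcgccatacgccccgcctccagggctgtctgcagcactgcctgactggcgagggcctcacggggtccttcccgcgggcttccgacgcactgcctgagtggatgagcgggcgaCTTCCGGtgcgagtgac
Psmb6: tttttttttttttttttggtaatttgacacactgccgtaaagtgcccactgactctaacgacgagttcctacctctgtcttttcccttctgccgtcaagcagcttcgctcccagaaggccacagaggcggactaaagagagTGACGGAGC
Psmd8: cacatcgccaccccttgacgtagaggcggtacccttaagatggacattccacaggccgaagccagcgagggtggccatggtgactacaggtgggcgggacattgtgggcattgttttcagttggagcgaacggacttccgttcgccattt
Psme2: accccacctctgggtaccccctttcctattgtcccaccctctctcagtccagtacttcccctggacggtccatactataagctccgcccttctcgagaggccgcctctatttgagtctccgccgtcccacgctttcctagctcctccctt

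Over the 250 bases before the start, on both strands and with motifs counted separately where they share bases, CCGGAAG was present for 12 of the 37 proteasome genes with an entry in the promoter table (32.4%). It was present for 16.1% of the 8580 tested genes with an entry and 7.83% of all 27025 genes of the table. TGACNNNGC was present for 13.5% of the proteasome genes and 14.3% of tested genes, CCAAT for 35.1% and 40.9%, and GGGCGG, the GC box, for 56.8% and 63.3%. The core of interferon-stimulated response elements, GAAA repeated after any 2 bases, was present for 3 of the 37 proteasome genes (8.11%) and 3.28% of tested genes. The genes with it were Psmb3, Psmd4 and Psmd9, and it was not found for Psme1 or Psme2. These are descriptions of letters, not of bound sites.

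The mean summed level of the proteasome genes was highest at day 2 and lowest at day 5 in both lines, though single genes did not all follow. It was 8290 ± 1897, 9121 ± 527 and 4789 ± 287 CPM in P248L cells untreated, at day 2 and at day 5, and 6334 ± 484, 8276 ± 366 and 4696 ± 36.3 CPM in WT cells (SD, n = 3 each). The untreated P248L libraries spread from 6779 to 10419 CPM and overlapped the day 2 libraries, which held 8592 to 9646 CPM. In both lines every day 5 library lay below every earlier library, and in WT cells every day 2 library, at 7971 CPM or more, lay above every untreated one, at 6891 CPM or less.

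**Figure D1:**
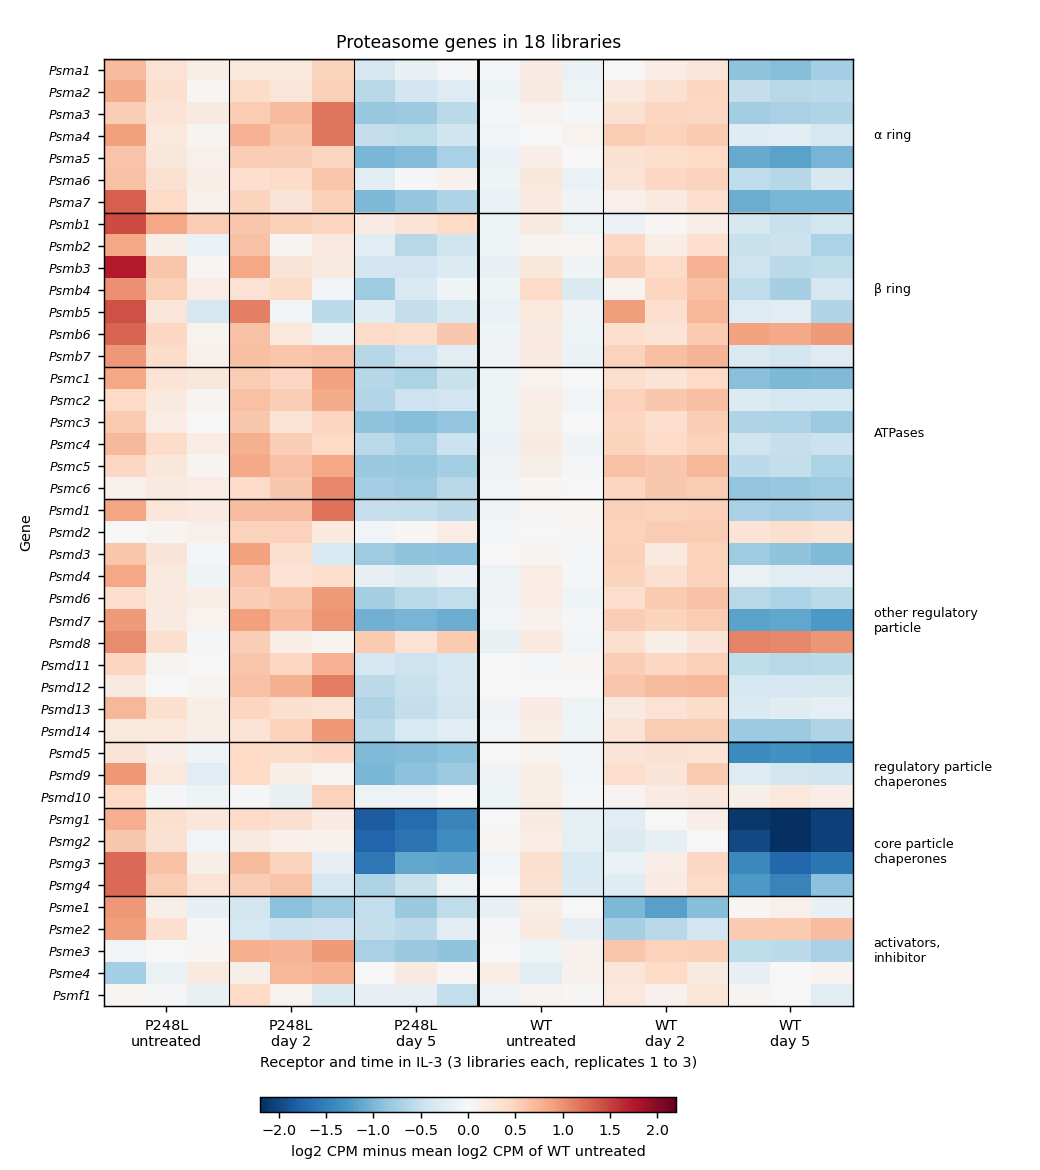
Level of each of the 43 proteasome genes that passed the filter (rows, grouped by role) in each of the 18 libraries (columns, P248L then WT, untreated to day 5), as log2 CPM minus the mean of WT untreated. Core chaperones are darkest blue at day 5 in both lines, Psmb6 and Psmd8 are red in WT day 5, and P248L untreated library 1 is redder than its partners.

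At day 2, 12 of the 43 genes rose and 3 fell in P248L cells, against 18.5% of all genes tested that rose and 21.5% that fell (40% called). In WT cells 21 rose and 2 fell, where 22.1% and 21.8% of all genes did (43.9% called). When libraries were not scaled beyond their size, 12 rose and 2 fell in WT cells. The median log2 change over the 43 genes was 0.09 in P248L and 0.42 in WT cells, and over all genes -0.01 and 0.00. The P248L median was 0.32 without untreated library 1, and with no scaling the medians were 0.00 in P248L and 0.25 in WT cells, where those of all genes were -0.12 and -0.17. Of the genes that rose, 11 were shared, 52.4% of the WT list and 91.7% of the P248L list, and the matching overlap over all genes was not counted. This overlap depended on P248L untreated library 1. Without it Psma4, Psma5, Psmb7, Psmc1, Psmc3, Psmd1, Psmd4 and Psmd7 of the WT list rose in P248L cells as well. Psma6 and Psmc4 were still not called there (adjusted p = 0.21 and 0.066). In P248L cells the count depended on the fit. Same-numbered libraries of day 2 and untreated deviated together, and with the replicate number as a block in these 6 libraries alone the calls left were the rises of Psmd12, Psme3, Psme4, Psmc5 and Psmc6 and the falls of Psme1 and Psme2. Without the block but with these 6 libraries alone 2 rose and 2 fell, and without untreated library 1 20 rose and 2 fell. The difference between the lines' day 2 responses was called by edgeR for 0 of 43 genes, against 9.55% of all genes (3.05% positive and 6.5% negative). The smallest adjusted p was 0.12, 4 of the 43 genes had an unadjusted p under 0.05, and DESeq2 also called 0. Of the 43 differences 37 were negative, with a median of -0.22, or -0.04 without P248L untreated library 1.

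By day 5 the fall was broad. In P248L cells 37 of 43 genes fell below untreated and 0 rose, against 36.2% of all genes that fell and 34.8% that rose (71.1% called). In WT cells 28 fell and 4 rose, against 37.4% and 35.7% of all genes (73.1% called). The median log2 change was -0.95 in P248L and -0.57 in WT cells. All 28 genes that fell in WT cells also fell in P248L cells, which is 75.7% of the P248L list, and the matching overlap over all genes was not counted. Without P248L untreated library 1, 34 fell and 0 rose in P248L cells, with a median of -0.72, and the falls of Psma6 (-0.30, adjusted p = 0.067), Psmb5 and Psmd4 were no longer called. With no scaling beyond library size the median of all genes moved to -0.25 in P248L and -0.49 in WT cells, and 39 fell in P248L cells while 35 fell and 1 rose in WT cells. Relative to those shifted medians the proteasome genes still stood lower, at -1.17 and -1.01.

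Against day 2, the day 5 libraries were lower still. In P248L cells 36 genes fell and 0 rose, against 33.1% and 37.1% of all genes (70.2% called), with a median of -1.08. In WT cells 35 fell and 3 rose, against 34.7% and 36% of all genes (70.7% called), with a median of -1.05. All 12 genes that had risen by day 2 in P248L cells fell again between day 2 and day 5, as did 20 of the 21 in WT cells. The exception was Psmd2, a scaffold subunit of the base, whose log2 change from day 2 to day 5 in WT cells was -0.22 ± 0.10 (adjusted p = 0.062). These comparisons share libraries, so a high day 2 level enters both the rise and the fall. The share of all genes that rose and then fell was not counted, so this pattern cannot be called particular to the proteasome genes.

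**Figure D2:**
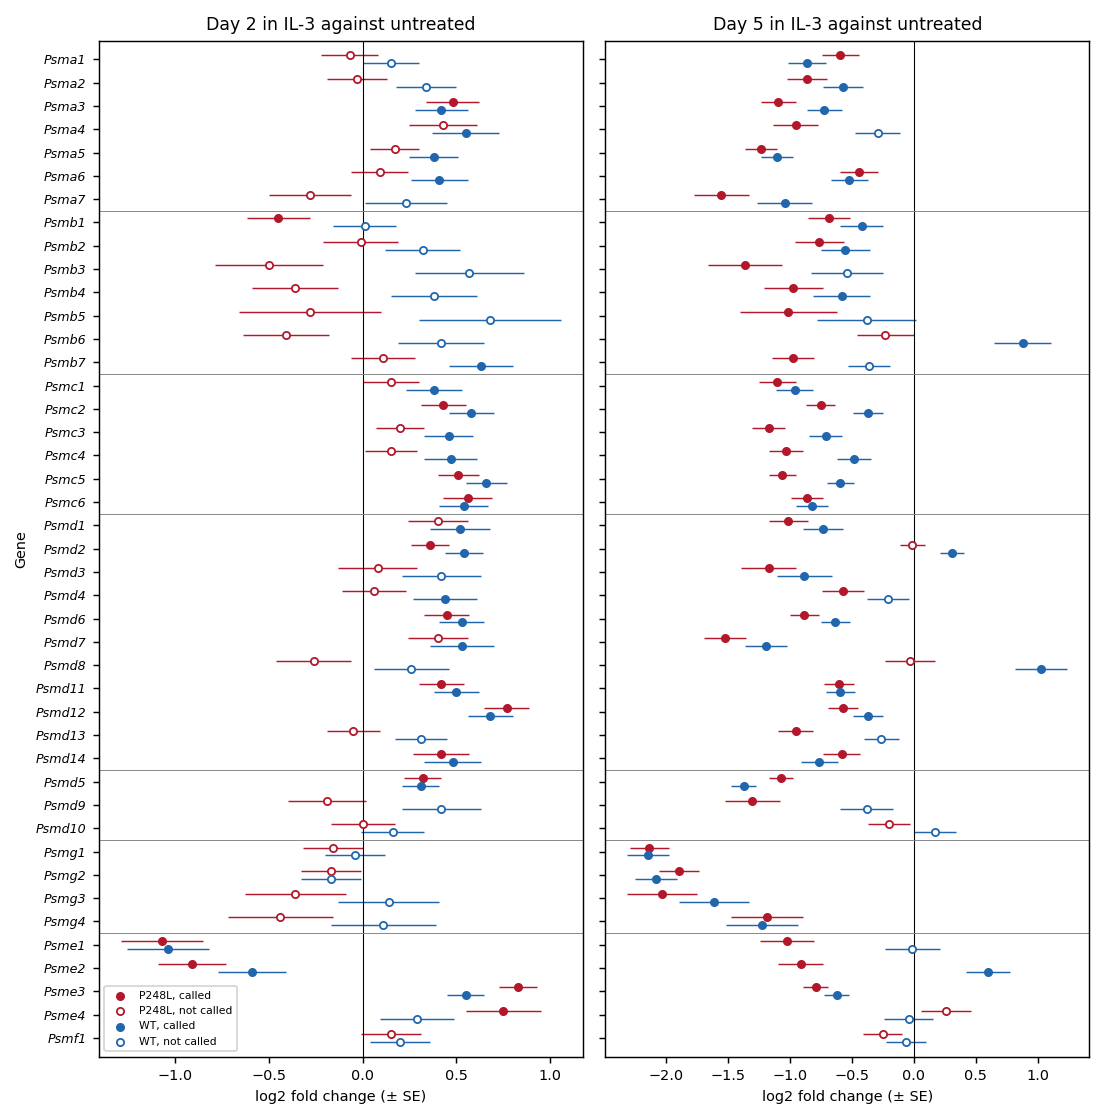
Log2 fold change with its SE (x axis) of the 43 proteasome genes (y axis) at day 2 and at day 5 against untreated, P248L in red and WT in blue, filled where the adjusted p was under 0.05. At day 2 the filled points lie right of 0 except those of Psme1 and Psme2 and the P248L point of Psmb1, and at day 5 they lie left of 0 except the WT points of Psmb6, Psmd2, Psmd8 and Psme2.

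Of the α ring genes, 7 of 8 passed the filter and all 7 fell between day 2 and day 5 in both lines, by 0.51 to 1.58 on the log2 scale in P248L and 0.84 to 1.49 in WT cells. At day 2 Psma3 rose in P248L cells (log2 change 0.48 ± 0.14, adjusted p = 0.011), and Psma3, Psma4, Psma5 and Psma6 rose in WT cells, by 0.38 to 0.55. Over all genes 18.5% rose at day 2 in P248L and 22.1% in WT cells, and 33.1% and 34.7% fell between day 2 and day 5. The P248L day 2 count is near its share. Leaving out P248L untreated library 1 added the rises of Psma4 (0.73) and Psma5 (0.34) in P248L cells, and with no scaling the WT rises of Psma3, Psma5 and Psma6 were not called (adjusted p = 0.082, 0.15 and 0.13). The P248L call of Psma3 was lost without P248L day 2 library 3 (adjusted p = 0.066), and the 4 WT calls were lost without WT untreated library 1 (adjusted p = 0.055 to 0.098), those of Psma3, Psma5 and Psma6 also without WT day 2 library 3 or WT untreated library 3. Psma7 had the highest level per kilobase of transcript among them in untreated WT cells, 273 ± 37.7 CPM per kb, and Psma3 the lowest, 31.5 ± 1.5 CPM per kb. This gap depends on the length taken, that of the longest principal transcript, 914 bases for Psma7 and 2846 for Psma3. Without division by length their means were 249.6 and 89.8 CPM. Psma7 averaged 139 CPM at day 5 in P248L cells and 121 CPM in WT cells, with a log2 change from untreated of -1.55 ± 0.22 (adjusted p = 5.9e-06) and -1.04 ± 0.22 (adjusted p = 3.4e-04). The P248L change of Psma7 was -1.12 without untreated library 1 (adjusted p = 1.1e-06). Psma5 is uncertain, since 55.4% of the 50-base windows of its transcript are shared with other annotated genes.

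Most of the 7 tested β ring genes fell between day 2 and day 5, though not all did. In P248L cells 4 fell and in WT cells 6, with medians of -0.73 and -0.97, and 0 rose in either. Over all genes 33.1% fell in P248L and 34.7% in WT cells between these times. Against untreated, 1 of the 7 genes fell and 0 rose at day 2 in P248L cells, and 6 fell at day 5. In WT cells 1 rose at day 2, and at day 5 3 fell and 1 rose. Over all genes 21.5% fell at day 2 and 36.2% at day 5 in P248L cells, and in WT cells 22.1% rose at day 2 and 37.4% fell and 35.7% rose at day 5. The day 2 counts and the WT count of day 5 falls are near these shares. The P248L day 2 fall was that of Psmb1 (-0.45, adjusted p = 0.043), which was -0.17 without P248L untreated library 1 (adjusted p = 0.35) and was also lost with DESeq2 (adjusted p = 0.073), with the replicate block (adjusted p = 0.056) and without most other single libraries. Psmb7, the trypsin-like cutting subunit, stood at 297, 202 and 165 CPM in untreated P248L libraries, 243, 234 and 238 CPM at day 2 and 98.7, 112 and 129 CPM at day 5. WT libraries held 145, 177 and 140 CPM untreated, 218, 242 and 257 CPM at day 2 and 121, 114 and 125 CPM at day 5. Its day 2 rise was called in WT cells (0.63 ± 0.17, adjusted p = 0.0053), where groups did not overlap, and in P248L cells the change was 0.11 ± 0.17 (adjusted p = 0.65). It was 0.38 and called as well without P248L untreated library 1 (adjusted p = 0.035). By day 5 it had fallen by 0.97 ± 0.17 below untreated in P248L cells (adjusted p = 6.0e-05), and in WT cells the change was -0.36 ± 0.17 (adjusted p = 0.061).

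Psmb6, the caspase-like cutting subunit, was the β gene that rose in WT cells by day 5. It stood at 241, 135 and 104 CPM in untreated P248L libraries, 154, 116 and 92.3 CPM at day 2 and 133, 129 and 149 CPM at day 5. WT libraries held 92.1, 114 and 92.0 CPM untreated, 128, 122 and 148 CPM at day 2 and 182, 177 and 190 CPM at day 5. In P248L cells the 3 groups overlapped, whereas every WT day 5 library lay above every earlier WT library. The log2 change from untreated to day 5 was -0.23 ± 0.23 in P248L cells (adjusted p = 0.39) and 0.88 ± 0.23 in WT cells (adjusted p = 0.0024). The P248L change turned to 0.19 without untreated library 1 (adjusted p = 0.34). With no scaling beyond library size the WT change was 0.44 and its call was lost (adjusted p = 0.078).

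Psmb5, the chymotrypsin-like cutting subunit and the one that proteasome inhibitors bind, had very few reads for a core subunit. It stood at 19.6, 8.88 and 5.70 CPM in untreated P248L libraries, 15.9, 7.08 and 4.93 CPM at day 2 and 6.16, 5.14 and 5.77 CPM at day 5. WT libraries held 6.71, 8.63 and 6.96 CPM untreated, 13.9, 9.52 and 12.3 CPM at day 2 and 6.09, 6.31 and 4.69 CPM at day 5. In P248L cells all 3 times overlapped, and in WT cells they did not, with day 2 highest and day 5 lowest. Per kilobase this was 8.27 ± 1.16 CPM in untreated WT cells, against 125 to 177 CPM for the other 6 tested β genes. Of its 50-base windows 57.1% are shared with other annotated genes, and reads with several matches are tallied apart in the files, so the level and its changes are uncertain. Its day 5 change in P248L cells, -1.01 ± 0.39 (adjusted p = 0.030), was -0.37 without untreated library 1 (adjusted p = 0.35), and the call was also lost without any one P248L day 5 library (adjusted p = 0.056 to 0.081).

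Psmb1, a structural β subunit, was the one gene called higher in P248L than in WT cells at all 3 times. It stood at 626, 419 and 340 CPM in untreated P248L libraries, 356, 335 and 321 CPM at day 2 and 262, 285 and 315 CPM at day 5. WT libraries held 216, 270 and 214 CPM untreated, 212, 236 and 257 CPM at day 2 and 182, 166 and 175 CPM at day 5. At no time did the lines overlap. The difference was 0.99 ± 0.17 untreated (adjusted p = 4.5e-04), 0.52 ± 0.17 at day 2 (adjusted p = 0.024) and 0.72 ± 0.17 at day 5 (adjusted p = 0.0022). Without P248L untreated library 1 the untreated difference was 0.70 (adjusted p = 0.0010). The day 2 call was lost without WT day 2 library 1 (adjusted p = 0.088) or library 2 (adjusted p = 0.051).

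All 6 ATPase genes, Psmc1 to Psmc6, whose products form the ring that unfolds substrates, were called as rises only at day 2 and as falls only at day 5. At day 2, 3 rose in P248L and 6 in WT cells, by 0.43 to 0.56 and 0.38 to 0.66 on the log2 scale. Over all genes 18.5% and 22.1% rose. In P248L cells Psmc1 (0.37) and Psmc3 (0.38) rose too without untreated library 1, and with no scaling the WT rises of Psmc1, Psmc3 and Psmc4 were not called (adjusted p = 0.15, 0.054 and 0.080). By day 5 all 6 lay below untreated in both lines, with medians of -1.05 in P248L and -0.65 in WT cells, where 36.2% and 37.4% of all genes fell. Psmc5 had the largest WT rise of the ring. It stood at 159, 137 and 121 CPM in untreated P248L libraries, 205, 180 and 207 CPM at day 2 and 65.8, 64.7 and 69.1 CPM at day 5. WT libraries held 109, 126 and 112 CPM untreated, 180, 175 and 191 CPM at day 2 and 77.9, 80.5 and 71.4 CPM at day 5. In both lines the 3 times did not overlap, with day 2 highest and day 5 lowest. Of the ring's day 2 rises, that of Psmc1 in WT cells was the least firm (0.38, adjusted p = 0.045) and was lost without any single WT untreated or WT day 2 library, among others (adjusted p = 0.051 to 0.13 without 1 library).

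The other 11 regulatory particle genes split into a large group that followed the ATPases and a few that did not. At day 2, 5 rose in P248L and 8 in WT cells, and 0 fell in either. Over all genes 18.5% rose and 21.5% fell in P248L cells, and 22.1% and 21.8% in WT cells. In P248L cells 8 rose without untreated library 1, Psmd1 (0.64), Psmd4 (0.38) and Psmd7 (0.72) being added. Psmd12, a lid subunit, rose most in WT cells. It stood at 194, 169 and 177 CPM in untreated P248L libraries, 264, 290 and 370 CPM at day 2 and 113, 121 and 131 CPM at day 5. WT libraries held 170, 170 and 169 CPM untreated, 259, 276 and 281 CPM at day 2 and 129, 131 and 133 CPM at day 5. The times did not overlap in either line. Its day 2 rise was 0.77 ± 0.12 in P248L (adjusted p = 6.0e-05) and 0.68 ± 0.12 in WT cells (adjusted p = 1.3e-04), and by day 5 its change from untreated was -0.57 ± 0.12 and -0.37 ± 0.12. With DESeq2 the WT day 5 fall was not called (-0.25, adjusted p = 0.066).

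Psmd7, the lid partner of the deubiquitinase, had the second largest fall between day 2 and day 5 in P248L cells. It stood at 334, 198 and 184 CPM in untreated P248L libraries, 325, 277 and 339 CPM at day 2 and 83.5, 85.2 and 81.6 CPM at day 5. WT libraries held 167, 185 and 169 CPM untreated, 252, 243 and 256 CPM at day 2 and 77.1, 78.9 and 72.5 CPM at day 5. Its change from day 2 was -1.91 ± 0.17 in P248L (adjusted p = 1.7e-08) and -1.72 ± 0.17 in WT cells (adjusted p = 6.3e-08), and no day 5 library reached an earlier one.

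Of the genes that touch ubiquitin directly, Psmd14 rose at day 2 in both lines and Psmd4 in WT cells, and both fell between day 2 and day 5 in both lines. Psmd14, the deubiquitinase of the lid, stood at 258, 259 and 240 CPM in untreated P248L libraries, 274, 312 and 427 CPM at day 2 and 145, 175 and 185 CPM at day 5. WT libraries held 210, 244 and 206 CPM untreated, 272, 324 and 322 CPM at day 2 and 126, 126 and 139 CPM at day 5. Every day 5 library was the lowest of its line, and the change from day 2 was -1.0 ± 0.15 in P248L (adjusted p = 9.0e-06) and -1.23 ± 0.15 in WT cells (adjusted p = 8.2e-07). Its day 2 rise was 0.42 ± 0.15 in P248L (adjusted p = 0.030), lost without P248L day 2 library 3 (adjusted p = 0.19) or untreated library 3 (adjusted p = 0.054), and 0.48 ± 0.15 in WT cells (adjusted p = 0.014), and with no scaling neither was called (adjusted p = 0.079 and 0.061). Psmd4, a ubiquitin receptor, stood at 230, 147 and 119 CPM in untreated P248L libraries, 196, 159 and 163 CPM at day 2 and 112, 105 and 116 CPM at day 5. WT libraries held 117, 142 and 123 CPM untreated, 178, 161 and 180 CPM at day 2 and 115, 108 and 107 CPM at day 5. In both lines its day 5 libraries lay below all earlier ones, and its WT day 2 libraries lay above all untreated WT ones. In P248L cells its day 2 and untreated libraries overlapped, and the change was 0.06 ± 0.17 (adjusted p = 0.82), or 0.38 without untreated library 1 (adjusted p = 0.026). Its change from untreated to day 5 in P248L cells, -0.57 ± 0.17 (adjusted p = 0.0071), was -0.26 without untreated library 1 (adjusted p = 0.071). Its WT day 2 rise, 0.44 ± 0.17, lay at the threshold (adjusted p = 0.048) and was lost when any one of 13 libraries was left out, all WT day 2 libraries among them (adjusted p = 0.051 to 0.14). That call was also lost with no scaling (adjusted p = 0.18) and with no low-count filter.

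Psmd8, a lid subunit, rose in WT cells by day 5, where 7 of the 11 genes of this group fell, against 37.4% of all genes. It stood at 292, 181 and 138 CPM in untreated P248L libraries, 207, 156 and 148 CPM at day 2 and 210, 177 and 211 CPM at day 5. WT libraries held 127, 165 and 135 CPM untreated, 181, 155 and 173 CPM at day 2 and 302, 294 and 276 CPM at day 5. P248L groups overlapped, and all WT day 5 libraries lay above all earlier WT libraries. Its log2 change from untreated to day 5 was -0.03 ± 0.20 in P248L cells (adjusted p = 0.91) and 1.03 ± 0.21 in WT cells (adjusted p = 2.2e-04). The P248L change was 0.32 without untreated library 1 (adjusted p = 0.084). The WT rise kept its call under every alternative, with an adjusted p of 0.0099 under no scaling. Psmd2 also stood higher at WT day 5 than untreated, by 0.31 ± 0.10 (adjusted p = 0.011), with a P248L change of -0.01 ± 0.10 (adjusted p = 0.93), or -0.05 without P248L untreated library 1 (adjusted p = 0.71). With no scaling beyond library size the WT change of Psmd2 turned to -0.12 (adjusted p = 0.37), and without WT untreated library 1 its call was lost (adjusted p = 0.054).

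**Figure D3:**
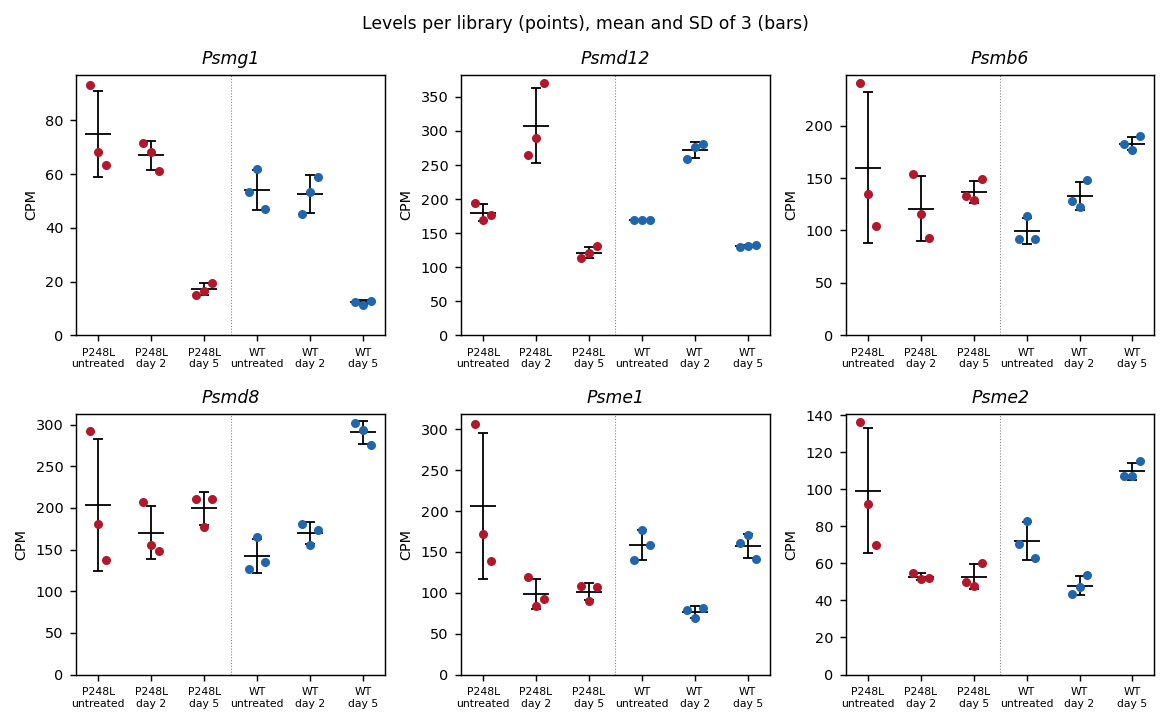
Level in CPM (y axis, from 0) of Psmg1, Psmd12, Psmb6, Psmd8, Psme1 and Psme2 in each library (points) with the mean and SD of 3 (bars), P248L in red left of WT in blue. Psmg1 drops to 11.4 to 19.6 CPM at day 5 in both lines, while Psmb6, Psmd8 and Psme2 reach their highest WT level at day 5.

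The assembly chaperones gave the largest falls. Psmg1 and Psmg2 encode one pair of proteins that help the α ring assemble, and Psmg3 and Psmg4 another. None of the 4 was called at day 2 in either line, and all 4 fell by day 5 in both, with medians of -1.96 in P248L and -1.85 in WT cells. Over all genes 40% were called at day 2 in P248L and 43.9% in WT cells, and 36.2% and 37.4% fell by day 5. Psmg1 stood at 93.0, 68.3 and 63.5 CPM in untreated P248L libraries, 71.6, 68.2 and 61.2 CPM at day 2 and 15.1, 16.6 and 19.6 CPM at day 5. WT libraries held 53.5, 61.8 and 46.9 CPM untreated, 45.3, 53.5 and 59.1 CPM at day 2 and 12.4, 11.4 and 12.9 CPM at day 5. Untreated and day 2 libraries overlapped in each line, and day 5 libraries stood far below both. At day 5 Psmg1 stood at 0.228 times its untreated level in P248L cells (log2 change -2.13 ± 0.16, adjusted p = 2.6e-09) and at 0.226 times in WT cells (-2.14 ± 0.17, adjusted p = 2.1e-09).

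Psmg2 stood at 75.2, 62.6 and 47.7 CPM in untreated P248L libraries, 57.3, 53.9 and 53.2 CPM at day 2 and 14.8, 16.2 and 19.3 CPM at day 5. WT libraries held 51.1, 55.8 and 43.0 CPM untreated, 40.3, 43.0 and 49.8 CPM at day 2 and 12.5, 10.9 and 12.0 CPM at day 5. Like its partner it overlapped between untreated and day 2 and was separate at day 5, with a change by day 5 of -1.89 ± 0.16 in P248L (adjusted p = 1.2e-08) and -2.08 ± 0.17 in WT cells (adjusted p = 3.1e-09). Psmg3 stood at 53.9, 35.7 and 24.9 CPM in untreated P248L libraries, 37.2, 32.0 and 20.1 CPM at day 2 and 7.69, 10.4 and 10.2 CPM at day 5. WT libraries held 21.9, 29.9 and 18.2 CPM untreated, 20.6, 25.2 and 31.2 CPM at day 2 and 8.53, 6.88 and 7.48 CPM at day 5. Its day 5 libraries also lay below all earlier ones, and the change by day 5 was -2.03 ± 0.28 in P248L (adjusted p = 4.6e-06) and -1.61 ± 0.28 in WT cells (adjusted p = 5.6e-05). Psmg4 stood at 44.4, 27.6 and 23.4 CPM in untreated P248L libraries, 27.2, 28.8 and 14.3 CPM at day 2 and 11.6, 13.3 and 17.3 CPM at day 5. WT libraries held 18.5, 23.6 and 14.9 CPM untreated, 15.6, 21.1 and 25 CPM at day 2 and 7.80, 6.77 and 9.93 CPM at day 5. Its change was the smallest of the 4, at -1.18 ± 0.29 in P248L (adjusted p = 0.0013) and -1.22 ± 0.29 in WT cells (adjusted p = 0.0011), and its P248L day 2 and day 5 libraries overlapped. Without P248L untreated library 1 the P248L changes were -1.95, -1.73, -1.70 and -0.87 for Psmg1, Psmg2, Psmg3 and Psmg4, all still called (highest adjusted p = 0.0090).

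The regulatory particle has its own assembly chaperones, encoded by Psmd5, Psmd9 and Psmd10. Psmd5 rose slightly at day 2, by 0.32 ± 0.10 in P248L (adjusted p = 0.018) and 0.31 ± 0.10 in WT cells (adjusted p = 0.019), and by day 5 had changed from untreated by -1.07 ± 0.10 in P248L (adjusted p = 4.2e-08) and -1.37 ± 0.10 in WT cells (adjusted p = 1.2e-09). The day 2 calls were lost without P248L untreated library 3 (adjusted p = 0.062), and in WT cells without WT untreated library 3 or WT day 2 library 2 (adjusted p = 0.069 and 0.056). Psmd9 fell by 1.30 ± 0.22 at day 5 in P248L cells (adjusted p = 3.5e-05), and the WT change was -0.38 ± 0.21 (adjusted p = 0.12). Psmd10, which also binds tumour suppressor proteins, moved by no more than 0.21 on the log2 scale over time in P248L and 0.17 in WT cells and was not called.

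**Figure D4:**
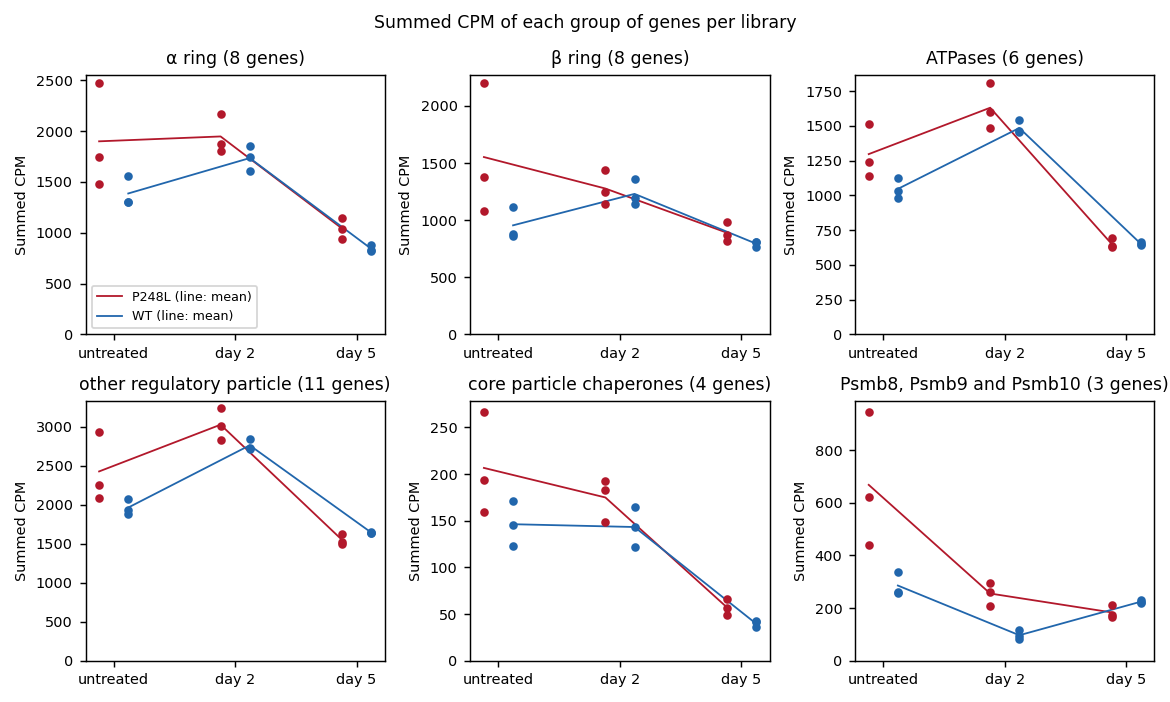
Summed CPM (y axis, from 0) of the genes of 5 roles, and of Psmb8, Psmb9 and Psmb10, in each library (points) over time (x axis), with a line through the group means, P248L in red and WT in blue. ATPase sums peak at day 2 in both lines, core chaperone sums at day 5 are 49.1 to 66.3 CPM in P248L and 35.9 to 42.4 CPM in WT cells, and the Psmb8, Psmb9 and Psmb10 sum falls at day 2.

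Activator and inhibitor genes each behaved differently. Psme1 and Psme2, the PA28 pair, fell at day 2 in both lines. Psme1 stood at 307, 172 and 139 CPM in untreated P248L libraries, 119, 84.4 and 92.1 CPM at day 2 and 108, 89.5 and 107 CPM at day 5. WT libraries held 140, 177 and 158 CPM untreated, 79.4, 68.7 and 82 CPM at day 2 and 161, 170 and 141 CPM at day 5. All day 2 libraries lay below all untreated ones in both lines, and at day 5 the WT level was back within its untreated range while the P248L level was not. At day 2 it changed by -1.07 ± 0.22 in P248L (adjusted p = 9.4e-04) and -1.04 ± 0.22 in WT cells (adjusted p = 8.2e-04), the P248L change being -0.66 without untreated library 1 (adjusted p = 0.0028). From day 2 to day 5 the change was 0.04 in P248L cells, and 1.04 ± 0.22 in WT cells (adjusted p = 3.9e-04).

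Psme2 showed the same split more strongly. It stood at 136, 92.1 and 69.7 CPM in untreated P248L libraries, 54.9, 51.5 and 52.2 CPM at day 2 and 50.1, 48.0 and 60.4 CPM at day 5. WT libraries held 70.3, 83.0 and 63.1 CPM untreated, 43.3, 47.2 and 53.5 CPM at day 2 and 107, 107 and 115 CPM at day 5. Every WT day 5 library lay above every earlier WT library, and every P248L day 5 library lay below every untreated P248L library. At day 2 it changed by -0.91 ± 0.18 in P248L (adjusted p = 7.9e-04) and -0.59 ± 0.18 in WT cells (adjusted p = 0.014). The WT call was lost without WT untreated library 2 (adjusted p = 0.079) or WT day 2 library 1 (adjusted p = 0.069). From untreated to day 5 it fell by 0.91 ± 0.18 in P248L cells (adjusted p = 2.4e-04) and rose by 0.60 ± 0.18 in WT cells (adjusted p = 0.0062). The P248L changes without untreated library 1 were -0.61 at day 2 and -0.62 at day 5, both still called (adjusted p = 0.0026 and 8.8e-04). With no scaling beyond library size the WT rise was 0.17 and not called (adjusted p = 0.37). From day 2 to day 5 the changes were -0.00 in P248L and 1.19 ± 0.18 in WT cells (adjusted p = 1.5e-05). Psme2 is uncertain, since 59.3% of its 50-base windows are shared, with Psme2b among others.

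The genes of the cutting subunits induced by interferon, which the rule left out, are given beside Psme1 and Psme2. Psmb8 stood at 751, 504 and 362 CPM in untreated P248L libraries, 226, 210 and 175 CPM at day 2 and 121, 128 and 157 CPM at day 5. WT libraries held 185, 238 and 184 CPM untreated, 51.9, 61.3 and 72.7 CPM at day 2 and 146, 148 and 145 CPM at day 5. All day 2 libraries of Psmb8 lay below all untreated ones in both lines, and at day 5 its level lay lower still in P248L cells and between the other times in WT cells. Psmb9 changed by -2.47 ± 0.25 at day 2 in P248L (adjusted p = 8.1e-07) and -2.41 ± 0.26 in WT cells (adjusted p = 6.2e-07), and then rose between day 2 and day 5 by 1.37 ± 0.25 and 2.35 ± 0.26. The difference of day 5 responses, P248L minus WT, was called for Psmb8 (-1.53 ± 0.29), Psmb9 (-1.04 ± 0.34) and Psmb10 (-1.69 ± 0.43), and without P248L untreated library 1 was -0.63 and not called for Psmb9 (adjusted p = 0.075). Interferon-response genes were summed beside them. The sum of Ifit1, Ifit3, Isg15, Irf7, Irf1 and Tap1, all 6 detected, was 90.7 to 111, 27.5 to 39.8 and 97 to 112 CPM in P248L cells untreated, at day 2 and at day 5, and 83.3 to 91.3, 33.4 to 36.4 and 1111 to 1337 CPM in WT cells. It was lowest at day 2 in both lines. At day 5 the sum lay far above its untreated range in WT cells and overlapped it in P248L cells. Tap1 and Irf1, at 53.7 and 29.9 CPM on average, held most of the P248L day 5 sum. Of the 6 genes, 4 rose and 1 fell in P248L cells by day 5 (median log2 change 2.44). In WT cells all 6 rose (median 8.07). Irf7, for 1, averaged 16.3 CPM at day 5 and 2.8 CPM untreated in P248L cells. There Psme1 and Psme2 stayed near their day 2 level. Psmb8 and Psmb10 fell between day 2 and day 5, to 135 and 18.7 CPM on average. The part of the interferon-response genes in the levels of Psme1, Psme2 and Psmb8 to Psmb10 was not tested.

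Psme3 encodes the nuclear PA28γ cap and followed the ATPases, not its relatives. It stood at 227, 239 and 244 CPM in untreated P248L libraries, 408, 400 and 454 CPM at day 2 and 145, 135 and 129 CPM at day 5. WT libraries held 240, 221 and 254 CPM untreated, 364, 336 and 344 CPM at day 2 and 162, 159 and 145 CPM at day 5. The 3 times did not overlap in either line, and the day 2 rise was 0.83 ± 0.10 in P248L (adjusted p = 5.6e-06) and 0.55 ± 0.10 in WT cells (adjusted p = 2.5e-04). Psme4, which encodes the large activator PA200, rose at day 2 in P248L cells by 0.75 ± 0.20 (adjusted p = 0.0071), with overlapping libraries, and its change in WT cells was 0.29 ± 0.20 (adjusted p = 0.26). Psmf1, which encodes a proteasome-binding inhibitor, stayed between 23.5 and 46.4 CPM in every library and passed the test only from day 2 to day 5 in P248L cells (-0.39 ± 0.16, adjusted p = 0.038), a call lost without P248L day 2 library 1 (adjusted p = 0.15) or P248L day 5 library 3 (adjusted p = 0.17).

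Differences between the lines were fewer than changes over time. In untreated cells 10 of 43 genes were higher in P248L and 0 lower, against 10.3% and 11.3% of all genes (21.7% called), with a median of 0.38, or 0.17 without P248L untreated library 1. This count rests on P248L untreated library 1, since without it 1 gene, Psmb1, was called. It was also 1 without WT untreated library 1 or 3, 16 without WT untreated library 2 or P248L day 2 library 3, and 31 without P248L untreated library 3. Psmb3, a structural β subunit, had the second largest difference, 0.96 ± 0.29 (adjusted p = 0.026), and was 0.33 without P248L untreated library 1 (adjusted p = 0.29). It stood at 338, 153 and 102 CPM in untreated P248L libraries and 90.1, 119 and 95.2 CPM in untreated WT libraries, which overlapped. Psmb3 is uncertain, since 55.8% of its 50-base windows are shared.

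At day 2, 3 genes were higher in P248L cells and 0 lower, against 15.5% and 20.3% of all genes (35.8% called), with a median of 0.13. They were Psmb1, Psma3 (0.42 ± 0.14, adjusted p = 0.027) and Psme3 (0.27 ± 0.10, adjusted p = 0.040), the call of Psme3 being lost without WT day 2 library 2 or 3 or P248L day 2 library 3 (adjusted p = 0.091 to 0.10), among others. Psma3 stood at 132, 146 and 204 CPM in P248L day 2 libraries and 113, 124 and 123 CPM in WT day 2 libraries, without overlap. Without P248L day 2 library 3 its difference was 0.22 (adjusted p = 0.16). The count was 1 without any single WT day 2 library or P248L day 2 library 3, 6 without P248L day 2 library 1 and 8 without P248L untreated library 1.

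At day 5, 8 genes were higher in P248L cells and 4 lower, against 22.8% and 22.7% of all genes (45.5% called), with a median of 0.02. Higher were Psmg4 (0.78 ± 0.30, adjusted p = 0.038), Psmb1, Psma1, Psmg2, Psmg1, Psma6, Psmd5 and Psmd14, and lower were Psme2 (-1.05 ± 0.18, adjusted p = 1.3e-04), Psme1 (-0.63 ± 0.22, adjusted p = 0.024), Psmd8 and Psmd2. With no scaling beyond library size 12 were higher and 2 lower. The count was 5 without WT day 5 library 1, 4 without WT day 5 library 2, 7 without P248L day 5 library 2 and 6 without P248L day 5 library 3. It was 21, with 9 higher and 12 lower, when the 6 day 5 libraries were fitted alone. The calls of Psmb1, Psma1, Psmd5 and Psme2 were not lost under any alternative at this threshold, while that of Psmd14 (0.37, adjusted p = 0.050) was lost under 17. Leaving out any one of 7 libraries ended the call of Psmg4 (adjusted p = 0.051 to 0.15), and WT day 5 library 1 or 2 or P248L day 5 library 2 that of Psme1 (adjusted p = 0.059 to 0.095). The call of Psma6 was lost without WT day 5 library 1 or 2 or P248L day 5 library 3 (adjusted p = 0.061 to 0.078). Those of Psmd8 and Psmd2 were lost with no scaling (adjusted p = 0.081 and 0.36), that of Psmd8 also without any one day 5 library (adjusted p = 0.057 to 0.14) and that of Psmd2 without any one of 6 libraries, all WT day 5 libraries among them (adjusted p = 0.061 to 0.17). Psmg1 and Psmg2 ended 0.48 ± 0.17 (adjusted p = 0.024) and 0.50 ± 0.17 (adjusted p = 0.019) higher in P248L than in WT cells, calls lost without P248L day 5 library 3 (adjusted p = 0.12 and 0.099) or WT day 5 library 2 (adjusted p = 0.086 and 0.080), and for Psmg1 WT day 5 library 1 (adjusted p = 0.057).

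The difference of the day 5 responses, P248L minus WT, was called for 8 of 43 genes, all negative, against 12.2% of all genes negative and 14.7% positive (26.9% called). Psme2 had the largest, -1.51 ± 0.26 (adjusted p = 2.8e-04), followed by Psmb6 at -1.11 ± 0.33 (adjusted p = 0.018), Psmd8 at -1.06 ± 0.29 (adjusted p = 0.011) and Psme1 at -1.01 ± 0.31 (adjusted p = 0.021). The others were the base chaperone gene Psmd9 at -0.93 ± 0.30 (adjusted p = 0.031), the lid gene Psmd13 at -0.69 ± 0.19 (adjusted p = 0.014) and the ATPase genes Psmc4 at -0.55 ± 0.19 (adjusted p = 0.043) and Psmc5 at -0.47 ± 0.16 (adjusted p = 0.039). All of these last 4 fell in P248L cells. In WT cells Psmc4 and Psmc5 fell by 0.48 and 0.59, and Psmd9 and Psmd13 had changes of -0.38 and -0.26 that were not called. Psme2, Psmb6 and Psmd8 kept the call under all 25 alternatives at the same threshold. Without P248L untreated library 1, Psme2, Psmb6, Psmd8 and Psme1 stood at -1.22, -0.69, -0.71 and -0.60, all called, the median over the 43 genes was -0.11 where it had been -0.32, and the chaperone gene Psmd5 was called with a positive difference (0.40, adjusted p = 0.030). Psme1 kept it under 23, losing it without WT untreated library 1 (adjusted p = 0.051) or P248L day 5 library 2 (adjusted p = 0.057). Psmd13 kept it under 24, Psmd9 under 17, Psmc5 under 14 and Psmc4 under 12, and without P248L untreated library 1 Psmd9, Psmc5 and Psmc4 stood at -0.55, -0.36 and -0.39 and were not called (adjusted p = 0.070, 0.082 and 0.10). With no scaling beyond library size 4 genes were lower and 2 higher. The count was 4 without WT untreated library 1 or P248L day 5 library 2, 5 without WT untreated library 3, WT day 5 library 1 or 2 or P248L day 5 library 1, and 15 without P248L untreated library 3.

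Genes around the proteasome were counted by list. Of 12 tested genes for other proteasome parts and partners, 2 rose and 6 fell at day 5 in P248L cells and 2 rose and 7 fell in WT cells. Without P248L untreated library 1, 2 rose and 8 fell in P248L cells. Over all genes tested 34.8% rose and 36.2% fell in P248L cells, and 35.7% and 37.4% in WT cells. Uchl5, a deubiquitinase of the regulatory particle, changed by -1.66 ± 0.17 in P248L (adjusted p = 1.2e-07) and -1.79 ± 0.17 in WT cells (adjusted p = 4.0e-08). Zfand2a, which encodes a stress-induced proteasome-binding protein, rose most, to 88.8, 85.8 and 109 CPM at day 5 in P248L cells against 10.5, 16 and 17.7 CPM untreated, and to 238, 225 and 229 CPM in WT cells against 17.7, 16.5 and 17.9 CPM. Its log2 changes were 2.68 ± 0.17 in P248L (adjusted p = 2.7e-10) and 3.74 ± 0.18 in WT cells (adjusted p = 3.3e-12).

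Of 14 tested genes of ubiquitin supply and delivery, 1 rose and 5 fell at day 5 in P248L cells and 2 rose and 8 fell in WT cells, where the share of all genes that fell was 36.2% in P248L and 37.4% in WT cells. The P248L count is near that share. In P248L cells 0 rose without untreated library 1. Vcp, the ATPase that extracts ubiquitin-tagged proteins, changed by -0.99 ± 0.12 in P248L (adjusted p = 8.3e-07) and -0.66 ± 0.12 in WT cells (adjusted p = 7.1e-05). Nfe2l1, the transcription factor that raises proteasome genes when degradation is short, ran opposite to them at day 5. It stood at 88.5, 99.7 and 97.9 CPM in untreated P248L libraries, 141, 134 and 114 CPM at day 2 and 200, 201 and 198 CPM at day 5. WT libraries held 116, 112 and 117 CPM untreated, 172, 163 and 169 CPM at day 2 and 196, 190 and 182 CPM at day 5. No 2 times overlapped in either line, and the day 5 rise was 1.07 ± 0.10 in P248L (adjusted p = 3.1e-08) and 0.72 ± 0.10 in WT cells (adjusted p = 3.0e-06). Its relative Nfe2l2 rose at day 5 by 0.42 ± 0.16 in P248L (adjusted p = 0.024) and 0.66 ± 0.16 in WT cells (adjusted p = 0.0011).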

How the data were processed

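RNA was sequenced from 18 libraries, 3 for each receptor and time, with 13844612 to 27181962 reads in genes. The submitters' processing notes name STAR and mm10. Which STAR version and gene models were taken is not given in the sources used here. Raw read counts per gene were deposited by the authors, in 1 column for both strands and 1 per strand, and the column of the strand with most reads was taken (the opposite one took 1.17 to 2.54% of the sum of both). All reads not assigned to a single gene for any reason, those with several matches among them, were 27.9 to 38.1% per library and were kept out of library sizes. Libraries were grouped by their labels. Genes passing filterByExpr (minimum count 10) were scaled by TMM and fitted with 1 mean per group over 18 libraries by edgeR 4.0.16 (R 4.3.3), with Benjamini-Hochberg adjustment over all 11942 genes, in 11 comparisons. SEs were derived from each log2 fold change and its F. Tests were tried on simulated counts. The members, gene lists, tests and the rule for named genes were chosen with earlier results of these data known, and 2 listed genes are not reported here. Given library by library are Psmb5, Psmb6, Psmb7, Psme1, Psme2, Psmd4, Psmd14 and the 2 members with the largest rise and fall per comparison, and other members are named where they pass against the trend or fit a role; Psmg2, Psmg3, Psmg4, Psmc5, Psmd7, Psma3, Psmb1, Psmb3, Psme3, Psmd12 and Psmd8 entered by this rule. Same-numbered libraries deviated together only in P248L day 2 against untreated (correlations 0.46, 0.17 and 0.35), a pairing seen in the data and not stated in the labels. Transcript lengths (APPRIS principal), shared 50-base windows and positions came from GENCODE M21, promoters from RefSeq GRCm38.p6, found for 37 of 45 genes. Alternatives were DESeq2 1.42.0, DESeq2 size factors, no scaling, no filter, a replicate block, the compared libraries alone, adjusted p under 0.01 and each library left out. Figures used matplotlib 3.10.9 (Python 3.11.15).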

Additional observations from a re-analysis of the deposited data

Results flagged for a closer look

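For 8 genes the response to 5 days of IL-3 differed between the lines by edgeR's interaction test, where 26.9% of all genes tested did. Without P248L untreated library 1, Psmd9, Psmc4 and Psmc5 were not called (adjusted p = 0.070, 0.10 and 0.082). The values are log2 changes in P248L minus those in WT cells. The PA28 genes gave -1.51 (Psme2) and -1.01 (Psme1), and the caspase-like subunit gene Psmb6 gave -1.11. The lid genes gave -1.06 (Psmd8) and -0.69 (Psmd13), the base chaperone gene Psmd9 gave -0.93, and the ATPase genes gave -0.55 (Psmc4) and -0.47 (Psmc5). The interferon-response sum at day 5 was 97 to 112 CPM in P248L and 1111 to 1337 CPM in WT cells. At day 2 it was 27.5 to 39.8 CPM in P248L and 33.4 to 36.4 CPM in WT cells. From day 2 to day 5 mean Psme1 went from 98.3 to 101 CPM in P248L and from 76.7 to 157 CPM in WT cells. Mean Psme2 went from 52.9 to 52.8 CPM in P248L and from 48 to 109.7 CPM in WT cells. The part of the sum in the Psme1 and Psme2 results was not tested. Of the 6 summed genes, 4 rose and 1 fell in P248L cells by day 5, and all 6 rose in WT cells.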

How the results depend on the processing

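Counts of called proteasome genes for day 2 or day 5 in IL-3 within a line, and day 5 against day 2, changed by less than 1.5 times when any library was left out. They ranged from 12 to 22 (P248L day 2), 34 to 38 (P248L day 5), 33 to 37 (P248L day 5 against day 2), 16 to 28 (WT day 2), 29 to 37 (WT day 5) and 36 to 40 (WT day 5 against day 2). Line comparisons were less stable, at 1 to 31 untreated (10 with all libraries), 1 to 8 at day 2 (3), 4 to 16 at day 5 (12), 0 to 4 for the difference of day 2 responses (0) and 4 to 15 for that of day 5 responses (8). At an adjusted p under 0.01 the counts were 11 for WT day 2, 1, 0 and 4 for P248L against WT untreated, at day 2 and at day 5, and 1 for the difference of day 5 responses. With only the libraries compared they were 4 for P248L day 2 and 1, 1 and 21 for P248L against WT untreated, at day 2 and at day 5. DESeq2 gave 17, 5 and 13 for P248L against WT untreated and at day 2 and for the difference of day 5 responses. With no scaling 14 genes were called at WT day 2 and 5 for P248L against WT untreated, and without both P248L untreated library 1 and day 2 library 3 the counts for P248L against WT were 3 untreated and 20 at day 5. The causes were not tested, apart from fewer libraries where some were left out. The replicate block over all libraries gave 14 for P248L day 2 against untreated, and in those 6 libraries alone, an alternative chosen after seeing the data, 7. It moved no other count by over 1.5 times. Of the 53 called results that the rule for named genes picked, 34 kept their call under every alternative, and of 1383 values 113 lost it and 0 changed sign. Other single results are not among the 53. They include the P248L day 2 fall of Psmb1, the WT day 2 rises of Psmd5 and Psmc1, and the day 5 differences of Psmd9, Psmc4 and Psmc5. All of these lost their call under some alternative. Also outside the 53, Psmd2 at WT day 5 turned to -0.12 with no scaling, and without P248L untreated library 1 the uncalled P248L day 5 changes of Psmb6 and Psmd8 turned to 0.19 and 0.32. With no scaling 34.4% of all called genes were higher at WT day 5, against 48.9% with TMM. Reads shared with copies limit Psme2, Psmb5, Psmb3 and Psma5.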
